A study of Mus musculus with 8 samples.

Results

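Promoters shared by 2 protein-coding genes that are transcribed away from each other were examined in the open-chromatin regions of mouse medullary thymic epithelial cells (mTECs). A region was taken as bidirectional when its centre lay near transcription starts of protein-coding genes on both strands, no more than 1000 bases before and 100 bases after each of these starts, in the basic set of GENCODE M21 on the mm10 genome. This held for 834 of 55917 autosomal regions (1.49%, 95% Wilson interval 1.39 to 1.60) out of 57124 regions in all. The regions came from ATAC-seq, in which the Tn5 transposase inserts sequencing adapters into accessible DNA. Cells of wild-type BL6N6 mice aged 4 to 6 weeks had been sorted from the thymus by the surface markers Tspan8 and MHCII, and the labels give 4 groups with 2 biological replicates each: Tspan8neg MHCIIlow, Tspan8neg MHCIIhigh, Tspan8pos MHCIIlow and Tspan8pos MHCIIhigh. All values below are coordinates and reference sequence of a single region set shared by the 8 samples, because the columns of read counts carry names that match no sample, so accessibility per group and depth per sample are not analysed here and no difference between the groups is given.

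In a bidirectional promoter the starts of both genes face away from each other within a short stretch of DNA, so that a single nucleosome-free area can serve both transcripts. Such promoters are usually CpG islands without a TATA box, and they are known for genes that every cell uses, among them DNA repair, mitochondrial and chaperone genes. mTECs are known for the opposite kind of gene, the tissue-restricted self-antigens that they express to delete self-reactive T cells.

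The 834 regions belonged to 810 distinct closest gene pairs and were assigned by their centres to 1648 protein-coding genes. Of these regions, 804 were assigned to 2 coding genes, 30 to 3 and 0 to more. A region assigned to a gene need not cover its start. A gene named only by a clone or gene model was in the closest pair of 75 regions (8.99%). Most regions lay over the beginnings of both transcription units, since 734 (88.0%) touched an annotated exon of both genes and 723 (86.7%) touched an untranslated region of both. They were spread over all 19 autosomes with 17 to 76 regions each, and made up between 4.91% and 10.2% of an autosome's regions at protein-coding promoters (8.07% of 10335 regions over all autosomes).

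Stretches between the opposite starts are shown for the 4 textbook pairs with an exon-free part of 40 to 300 bases and for 3 histone pairs, so that the motif counts further on can be read against actual sequence. No searched motif is in the part shown for Mcm4/Prkdc. They were read from the plus strand of the GRCm38.p6 reference and cut to the longest part that no annotated exon touches. The left end points toward the minus-strand gene. Capitals mark, on either strand, the letters CCAAT that NFY binds, a GC box (the SP motif), a TATA box and a cyclic AMP response element (the CREB motif). Mcm4/Prkdc is at chr16:15637401-15637443, Atm/Npat at chr9:53536829-53536888, Brca1/Nbr1 at chr11:101551956-101552106, Mrps12/Sars2 at chr7:28741822-28741956, Hist2h2ac/Hist2h2be at chr3:96220881-96221071, Hist1h2ak/Hist1h2bn at chr13:21753913-21754075 and Hist1h2ag/Hist1h2bj at chr13:22042950-22043197. The histone pairs were chosen after their values were seen.
Mcm4/Prkdc: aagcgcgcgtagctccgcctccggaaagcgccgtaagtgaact
Atm/Npat: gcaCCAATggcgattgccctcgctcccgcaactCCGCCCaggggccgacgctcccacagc
Brca1/Nbr1: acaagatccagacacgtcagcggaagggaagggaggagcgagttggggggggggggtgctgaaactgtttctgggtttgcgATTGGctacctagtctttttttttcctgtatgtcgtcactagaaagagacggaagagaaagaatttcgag
Mrps12/Sars2: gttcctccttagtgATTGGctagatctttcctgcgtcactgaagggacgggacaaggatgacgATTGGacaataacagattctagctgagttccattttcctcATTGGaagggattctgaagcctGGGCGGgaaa
Hist2h2ac/Hist2h2be: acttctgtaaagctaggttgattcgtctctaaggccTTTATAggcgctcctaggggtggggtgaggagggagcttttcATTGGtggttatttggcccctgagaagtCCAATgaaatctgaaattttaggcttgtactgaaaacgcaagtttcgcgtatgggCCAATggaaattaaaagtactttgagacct
Hist1h2ak/Hist1h2bn: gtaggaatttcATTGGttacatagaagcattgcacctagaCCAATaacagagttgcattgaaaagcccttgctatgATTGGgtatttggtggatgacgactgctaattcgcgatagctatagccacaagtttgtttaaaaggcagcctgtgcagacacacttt
Hist1h2ag/Hist1h2bj: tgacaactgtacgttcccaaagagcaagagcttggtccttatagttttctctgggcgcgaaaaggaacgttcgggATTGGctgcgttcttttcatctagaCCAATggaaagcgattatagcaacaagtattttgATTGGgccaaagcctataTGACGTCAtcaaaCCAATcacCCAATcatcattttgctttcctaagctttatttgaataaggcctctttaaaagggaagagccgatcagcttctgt

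Bidirectional regions were wide. Their median width was 693 bases (quartiles 525 to 885.5, range 79 to 2063), and the 95% interval of the median ran from 670 to 712. Regions at the start of a single coding gene had a median of 497 bases (interval 490 to 503, n = 9411), which left a difference of 196 bases. The bidirectional median was the larger on 19 of 19 autosomes, by 117.5 to 292.5 bases. It was also the larger in each of 6 classes of GC content, by 594 bases where GC was under 50% (n = 33 bidirectional regions) and by 132 bases where it was 70% or more. Only 23 bidirectional regions (2.76%) were under 200 bases, against 1290 single-gene regions (13.7%), and 282 (33.8%) reached 800 bases or more, against 1649 (17.5%).

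Single-gene regions were then divided by whether a noncoding transcript started on the opposite strand within the same reach. The 797 with such a start had a median of 614 bases (interval 589 to 641), and the 8614 without one had a median of 486 bases (interval 478 to 495). The bidirectional median exceeded the first of these by 79 bases and the intervals did not overlap. Regions with coding starts of several genes on 1 strand only had a median of 533 bases (n = 90, interval 468 to 586), regions at noncoding starts 262 bases (n = 1791) and regions outside promoters 176 bases (n = 43791). Read the other way, the bidirectional share of the regions at coding promoters was 1.75% (23 of 1318) for widths under 200 bases and 16.2% (80 of 495) for widths from 1000 to 1199 bases.

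**Figure D1:**
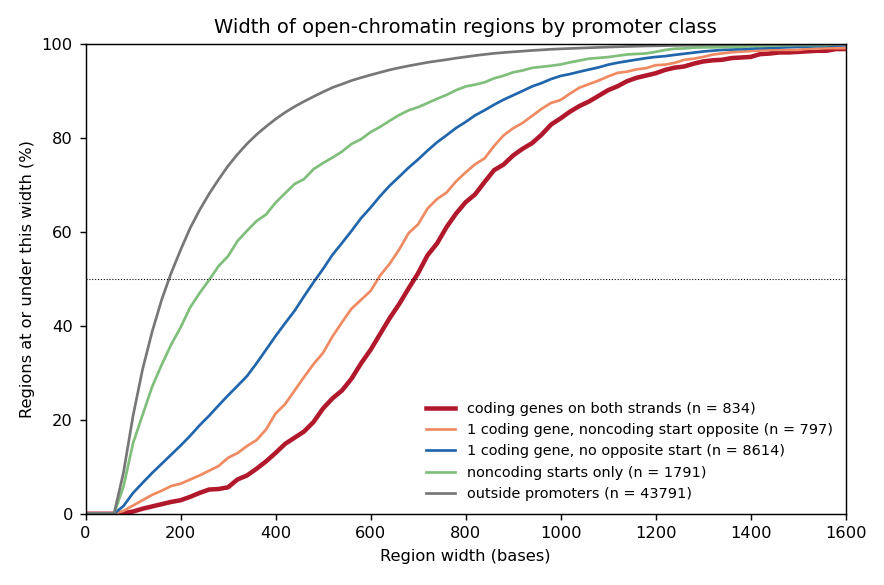
Cumulative share of regions (%, y axis) at or under each width (bases, x axis) in 5 classes of autosomal region; the dotted line marks 50%. The curve of the 834 bidirectional regions lies furthest to the right and crosses 50% near its median of 693 bases, against 614 bases for single-gene regions with an opposite noncoding start and 486 bases for those without.

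Coding promoter regions of all classes were rich in GC and CpG. Median GC content was 64.3% in bidirectional and 65.5% in single-gene regions. The ratio of observed to expected CpG in the central 300 bases was 0.860 (quartiles 0.736 to 0.982) in bidirectional regions, 0.809 in single-gene regions, 0.889 in single-gene regions with an opposite noncoding start and 0.251 outside promoters.

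The opposite starts of a pair lay a median of 124.5 bases apart (quartiles 60 to 263, range -196 to 1859, where values below 0 mean that both transcripts overlap). A single region reached both starts in 724 cases (86.8%, interval 84.3 to 88.9). This share is tied to the rule, which keeps the centre close to both starts, and it was 95.1% with 500 and 73.7% with 2000 bases allowed before a start. Another 69 regions (8.27%) covered 1 start and 41 (4.92%) covered neither. The median widths of these 3 kinds were 720.5, 476 and 240 bases. A region that covered neither start could lie between them, as at Pdzd7/Sfxn3 (305 bases wide, starts 1859 bases apart). It could also be centred near an alternative start of the same genes.

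Regions were wider in the classes with more distant starts, up to 1000 bases, and narrower beyond. They had a median width of 640 bases where starts were 0 to 100 bases apart (n = 295), 699 bases at 101 to 250 (n = 258), 805 bases at 251 to 500 (n = 125) and 810 bases at 501 to 1000 (n = 76), and 376.5 bases beyond 1000 (n = 18). Both starts were covered by 95.9%, 91.9%, 93.6%, 44.7% and 16.7% of the regions in these classes. As a description over regions, which share one set of libraries, Spearman's rho between width and distance was 0.231 for starts 0 to 500 bases apart (n = 678) and -0.299 beyond 500 (n = 94). Of the 62 regions with overlapping transcripts, 50 (80.6%) covered both starts and the median width was 627.5 bases.

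**Figure D2:**
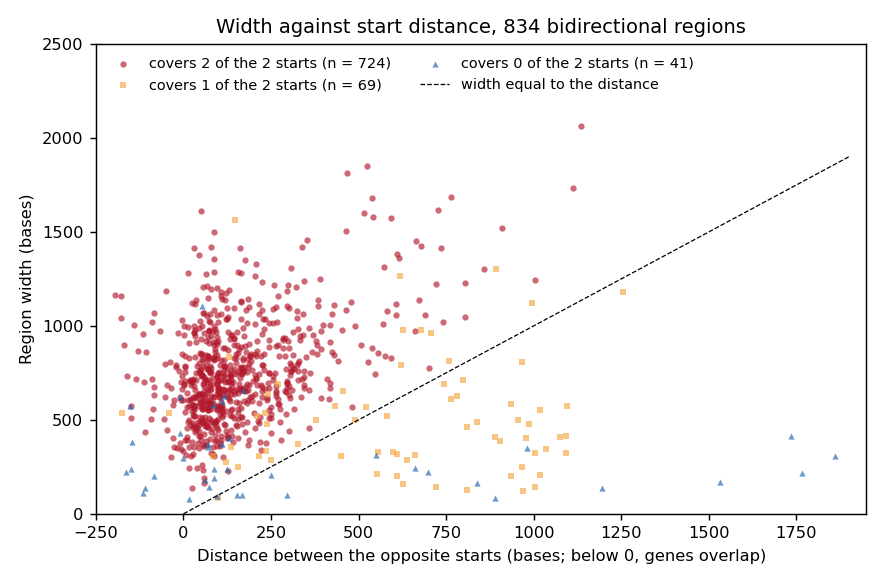
Width of each of the 834 bidirectional regions (bases, y axis) against the distance between its closest opposite starts (bases, x axis), by the number of starts covered (circles 2, squares 1, triangles 0); on the dashed line width equals distance. The 724 regions that cover both starts are mostly at distances under 500 bases, and beyond 1000 bases only 3 of 18 do.

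The reach of the regions into the genes was measured from the starts. In the 674 regions that covered both of 2 non-overlapping starts, a region extended a median of 272 bases into a gene (quartiles 179.75 to 380.25). The larger reach of each region had a median of 347 bases and the smaller reach 198 bases. Sorting the sides by reach fixes the order of these medians, so they do not show an asymmetry by themselves. The 8105 single-gene regions that covered their start (86.1% of 9411) extended a median of 246 bases into the gene and 279 bases away from it, and were 533 bases wide. The centre lay within 100 bases of the midpoint between the starts in 485 bidirectional regions (58.2%). The next region was a median of 10201 bases away for bidirectional and 7293 bases for single-gene regions, and 17.0% and 26.0%, respectively, had a neighbour within 2000 bases.

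The 10 widest bidirectional regions each covered both starts. Mepce/Zcwpw1 had the widest, 2063 bases at chr5:137785797-137787859, over starts 1135 bases apart. Mepce caps the 7SK RNA. Next came Atp6v1a/Naa50 with 1852 bases, the proton pump subunit and an N-terminal acetyltransferase. Hnrnpa2b1/Cbx3 followed with 1815 bases at chr6:51469402-51471216, a pair of an RNA-binding protein and the heterochromatin protein HP1 gamma that is known for its methylation-free CpG island. Genes of RNA-binding proteins were also in Hnrnpdl/Enoph1 (1685 bases), Srsf2/Mfsd11 (1616 bases) and Hnrnpk/Rmi1 (1612 bases). Rpl7/Rdh10 (1733 bases), Trip12/Fbxo36 (1680 bases) and Thap2/Zfc3h1 (1603 bases) were also among the 10. Hnrnpk/Rmi1 differed from the rest in that its starts were only 51 bases apart, and its region extended 1223 bases into Hnrnpk and 337 bases into Rmi1.

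At the other end, Abhd14a/Abhd14b had a region of 79 bases that covered neither of the closest starts, beside a second of 358 bases that covered both. Sgce/Peg10, an imprinted pair in which the paternal copy is expressed, had a region of 83 bases over the start of Sgce only, with starts 99 bases apart. Fhod1/Slc9a5 (84 bases), Gm3448/Ermard (96 bases) and Cramp1l/Ift140 (101 bases) followed, and their regions covered neither start. Altogether 24 pairs had 2 bidirectional regions and 0 had more. In 16 of these pairs 1 region covered both starts and the other neither, in 6 each region covered 1 start, among them Mrpl41/Pnpla7 with regions of 585 and 201 bases, and in 2 only 1 start was covered.

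The 30 regions assigned to 3 genes had a median width of 604 bases. The widest of them was at Fiz1/Zfp524, 1566 bases, and was also assigned to the gene model Gm44973. Atf5/Il4i1 (1041 bases) was also assigned to the nuclear pore gene Nup62, and Rad17/Ak6 (973 bases) to Taf9, a subunit of the general transcription factor TFIID. The pairs with the most distant starts, Pdzd7/Sfxn3 (1859 bases apart), Gpr108/Trip10 (1766), Cd3eap/Ppp1r13l (1735) and Atg9b/Abcb8 (1533), had regions of 305, 217, 416 and 167 bases that covered neither start. Samd4b/Gmfg, 1256 bases apart, had a region of 1180 bases over the start of Samd4b. The most overlapping pairs were Nudcd1/Eny2 (-196 bases, width 1166), Haus8/Myo9b (-179, width 1157), Atf5/Il4i1 (-178), Sf3b3/Cog4 (-176, width 534) and Oip5/Nusap1 (-171, width 897), and of these only the region of Sf3b3/Cog4 missed a start.

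Well-known bidirectional promoters were then looked up by name. Of 22 textbook pairs, 18 were annotated head to head within reach in the mouse set used here, and 10 of these had a region assigned to both genes. Hspd1/Hspe1, the mitochondrial chaperonin and its co-chaperonin, had a region of 1062 bases at chr1:55087480-55088541. It covered both starts, 108 bases apart, and reached 544 bases into Hspd1 and 409 bases into Hspe1. Brca1/Nbr1, a homologous recombination gene and an autophagy receptor, had a region of 1157 bases at chr11:101551825-101552981, with 54 bases in Brca1 and 832 bases in Nbr1.

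Prkdc/Mcm4, the catalytic subunit of DNA-PK and a subunit of the replicative helicase, had 999 bases over starts 489 bases apart. Atm/Npat, the kinase of the double-strand break response and a coactivator of histone genes, had 758 bases at chr9:53536620-53537377 over starts 307 bases apart. Sirt3/Psmd13 had 919 bases, Pdcd10/Serpini1 1057 bases, Mrps12/Sars2 588 bases, Hars/Hars2 528 bases and Nthl1/Tsc2 490 bases. All of these covered both starts. Gart/Son, a purine synthesis enzyme and a splicing factor, was the exception, with a region of 331 bases over the start of Gart and with starts 554 bases apart.

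Several other textbook pairs had a single region over both starts that the centre rule gave to 1 gene. This was so for Col4a1/Col4a2, type IV collagen (860 bases), Surf1/Surf2 (484 bases) and Tap1/Psmb9, the peptide transporter and the immunoproteasome subunit of MHC class I presentation (661 bases at chr17:34187250-34187910, starts 38 bases apart). Gabpa/Atp5j had a region of 1251 bases over 1 start. Col4a3/Col4a4, the collagen of the glomerular basement membrane, had no region at either gene, and the nearest centre was 76923 bases away. Tk1/Afmid and Thbs3/Mtx1 also had none by the rule, although a region of 706 bases covered 1 start of Thbs3/Mtx1. Another 4 pairs, among them Ppat/Paics and Acat2/Tcp1, were not annotated head to head within reach under their names.

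Seen from the annotation, 1169 head-to-head coding pairs were within reach of the rule. A region shared by both genes was found for 839 (71.8%, interval 69.1 to 74.3), separate regions for 47 (4.02%), a region at 1 gene for 218 (18.6%) and none for 65 (5.56%). The share with a region at both genes was 54.6% for overlapping pairs (n = 119), 82.5% at 0 to 100 bases (n = 359), 84.5% at 101 to 250 (n = 317), 91.5% at 251 to 500 (n = 142), 77.6% at 501 to 1000 (n = 98) and 38.1% beyond (n = 134). The rule assigns a region by its centre, and of the 218 pairs with a region at 1 gene, 120 (55.0%) had a single region that covered both starts, 40 of them among the 49 overlapping pairs of this kind. Counted by coverage, a single region spanned both starts of 878 pairs (75.1%, interval 72.5 to 77.5).

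**Figure D3:**
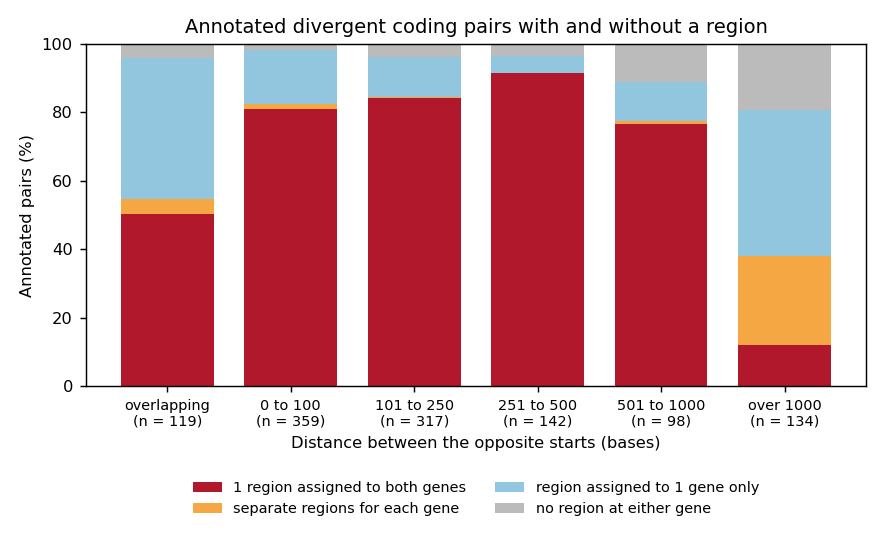
Share of annotated head-to-head coding pairs (%, y axis) by what region they have, in 6 classes of distance between the starts (bases, x axis). One region for both genes (dark red) is found for 91.5% of pairs 251 to 500 bases apart and for 11.9% of those over 1000 bases apart, where separate regions make up 26.1%.

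Genes in a head-to-head pair had a promoter region more often than other genes. A region shared by a pair counts for both of its genes, which the intervals treat as independent. A region was at 1946 of 2289 such genes (85.0%, interval 83.5 to 86.4), against 8381 of 18518 genes in no pair (45.3%, interval 44.5 to 46.0). Without olfactory receptor genes, which are numerous and sensory-neuron specific, the latter share was 48.1%.

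Gene lists differed in how often their members were at a bidirectional region, against 1648 of 20807 coding autosomal genes (7.92%, interval 7.56 to 8.30). Only genes in an annotated head-to-head pair could be counted. These were 11.0% of all coding genes, and 72.0% of them were at a bidirectional region. The share at a bidirectional region was highest for DNA repair, with 37 of 110 genes (33.6%, interval 25.5 to 42.9). In an annotated pair were 40.9% of DNA repair genes, and 82.2% of those paired genes were at a bidirectional region. The regions of the DNA repair genes had a median width of 658 bases, and 33 of 37 covered both starts. For homologous recombination these were Brca1, Palb2/Dctn5 (551 bases), Ankrd49/Mre11a (624 bases), Rad51c/Tex14 (602 bases), Zfyve26/Rad51b (405 bases), Xrcc3/Zfyve21 (811 bases) and Gen1/Smc6 (1035 bases), of which Rad51c/Tex14 covered neither start and Zfyve26/Rad51b covered 1. For end joining they were Prkdc, Desi1/Xrcc6 (722 bases) and Xrcc4/Tmem167 (663 bases). Base excision repair was represented by Osgep/Apex1 (748 bases), Mbd4/Ift122 (709 bases), Toe1/Mutyh (591 bases), Nthl1, Pinlyp/Xrcc1 (658 bases), Fen1/Tmem258 (619 bases) and Zswim9/Lig1 (562 bases). Mismatch repair had Aimp2/Pms2 (769 bases) and Pms1/Ormdl1 (591 bases), and nucleotide excision repair had Xpc/Lsm3 (464 bases), Tkfc/Ddb1 (581 bases) and Ndufaf2/Ercc8 (714 bases). The checkpoint genes were Atm, Hscb/Chek2 (675 bases), Brix1/Rad1 (553 bases) and Rad17. Helicases were at Recql/Golt1b (735 bases), Recql4/Lrrc14 (362 bases) and Wrn/Purg (712 bases), and translesion polymerases at Polh/Xpo5 (639 bases) and Polk/Col4a3bp (792 bases). Emc3/Fancd2, of the Fanconi anaemia pathway, had the narrowest region of the list (353 bases). Besides the pairs named above, Pinlyp/Xrcc1 covered neither start and Wrn/Purg covered 1.

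Mitochondrial gene lists were also above the share of all genes. In an annotated pair were 39.7% of mitochondrial ribosome genes and 30.8% of respiratory complex genes. Of these paired genes, 74.2% and 71.9% were at a bidirectional region, near the 72.0% of all paired genes. Subunits of the mitochondrial ribosome were at a bidirectional region in 23 of 78 cases (29.5%, interval 20.5 to 40.4), with a median width of 588 bases. The widest were at Mrpl40/Hira (1351 bases), Tmem63b/Mrpl14 (1277 bases) and Ncapd2/Mrpl51 (1083 bases). Mrpl46/Mrps11 (522 bases, starts 30 bases apart) joined 2 ribosomal subunit genes, and Ndufs6/Mrpl36 (402 bases) joined a subunit gene with one of respiratory complex I. The respiratory complexes had 23 of 104 genes (22.1%, interval 15.2 to 31.0), led by Vmac/Ndufa11 (1287 bases), Stxbp4/Cox11 (981 bases) and Haus1/Atp5a1 (837 bases). The starts of Ndufs1/Eef1b2 were 3 bases apart in a region of 707 bases. Aminoacyl-tRNA synthetases had 8 of 38 genes (21.1%, interval 11.1 to 36.3), among them the mitochondrial enzymes of Lyrm4/Fars2 (703 bases), Orc3/Rars2 (488 bases) and Sars2. S100pbp/Yars had the widest of them, 1114 bases.

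Cytosolic ribosomal protein genes had 13 of 82 (15.9%, interval 9.51 to 25.3), with the widest region at Rpl7/Rdh10, where a ribosomal protein gene faces a retinol dehydrogenase gene. The proteasome had 7 of 48 (14.6%, interval 7.25 to 27.2), an interval that holds the share of all genes. Its members were Psme2/Rnf31 (1118 bases), Psma7/Ss18l1 (1063 bases), Psmd13, Ftsj3/Psmc5 (753 bases), Mrpl32/Psma2 (687 bases), Cep76/Psmg2 (641 bases) and Psmb1/Tbp (448 bases), and 7 of 7 regions covered both starts. Psmb1/Tbp joins a core proteasome subunit with the TATA-binding protein. Zinc finger genes were below the share of all genes, with 19 of 415 (4.58%, interval 2.95 to 7.04), although 254 others had a promoter region of another kind. In an annotated pair were 7.95% of zinc finger genes, and 57.6% of those paired genes were at a bidirectional region.

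Lists of genes tied to the functions of mTECs had few or no members at these promoters. Antigen presentation had 1 of 25 genes (4%, interval 0.710 to 19.5, which holds the share of all genes). This was H2-DMa, which encodes a chain of the peptide exchange factor of MHC class II. Its region of 535 bases at chr17:34122284-34122818 was also assigned to the bromodomain gene Brd2. This region did not cover both starts, which were 232 bases apart. With comprehensive transcripts the share was 16%, against 9.86% of all coding genes, and Tap1/Psmb9, with its single region over both starts, is outside the count only by the position of the centre. Of 30 genes known from mTECs, among them Aire, Fezf2, Tspan8, Epcam, Cd80 and Foxn1, 0 were at a bidirectional region (95% Wilson upper limit 11.4%, above the share of all genes), 22 had a promoter region of another kind and 8 had none, and 0 were in an annotated head-to-head pair. Keratin and cornified envelope genes had 0 of 153 (upper limit 2.45%) with 1 gene in such a pair, and olfactory receptors had 0 of 1128 (upper limit 0.339%) with 2 genes in 1 pair, so few of these genes could have been counted.

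**Figure D4:**
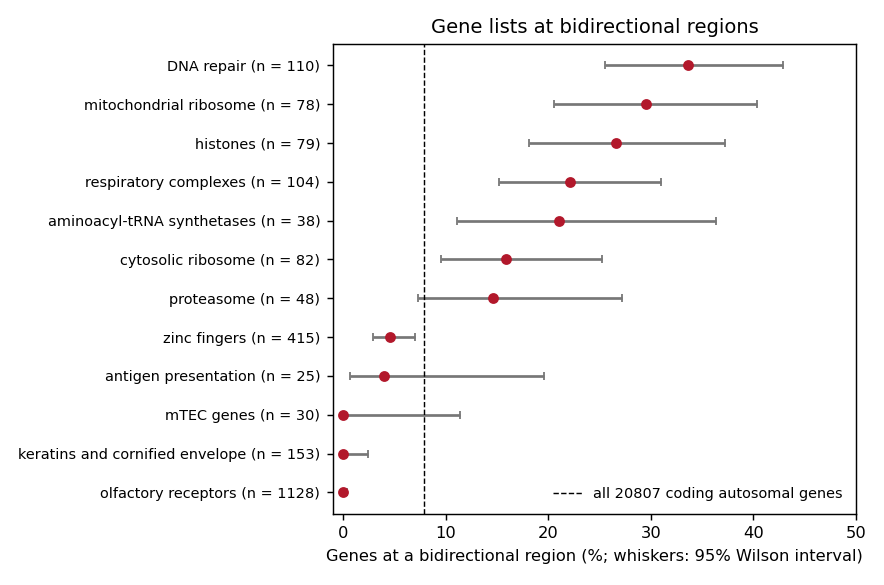
Share of the genes of each of 12 lists that are at a bidirectional region (%, x axis; points, with 95% Wilson intervals), with the share of all 20807 coding autosomal genes as a dashed line at 7.92%. DNA repair (33.6%) and the mitochondrial ribosome (29.5%) lie furthest to the right, and the mTEC, keratin and olfactory receptor lists lie at 0. Only genes in an annotated head-to-head pair could be counted (40.9% of DNA repair, 39.7% of mitochondrial ribosome and 11.0% of all genes).

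Histone genes were in an annotated head-to-head pair in 48.1% of cases, against 11.0% of all coding genes. Of the paired histone genes, 55.3% were at a bidirectional region, against 72.0% of all paired genes. This made 21 of 79 histone genes (26.6%, interval 18.1 to 37.2, which treats genes of 1 region as independent), in 11 regions. In 10 of these both genes were histones, and an H2A gene faced an H2B gene except at Hist1h2bh/Hist1h3f, where an H2B gene faced an H3 gene. Of these, 9 were on chromosome 13 and 1, Hist2h2ac/Hist2h2be, was on chromosome 3. Their widths ran from 311 to 708 bases (median 474), and the starts were 176 to 660 bases apart (median 260.5). The widest were at Hist1h2ak/Hist1h2bn (708 bases, starts 296 bases apart), Hist2h2ac/Hist2h2be (603 bases) and Hist1h2ag/Hist1h2bj (585 bases). Between the starts of these 10 pairs, as in the stretches printed above, CCAAT was found in 10 of 10 (34 matches) and TATAAA in 7 of 10, while GGGCGG was found in 0 of 10. In the other 681 regions with starts 40 bases or more apart, CCAAT was between the starts in 291 (42.7%), TATAAA in 29 (4.26%) and GGGCGG in 421 (61.8%). The stretches differ in length, and the median distance over all bidirectional regions was 124.5 bases. A longer stretch has more room for a match, and no rate per base was made. Histone genes of 1 type are near-identical copies, and reads that map to several places had been removed, so regions at these genes may be incomplete. The motif description was made after the pairs were seen.

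Short motifs of promoter-binding factors were counted on both strands in the central 300 bases of every region, a window of the same length for all classes. The letters were CGCATGCG for NRF1, CCGGAAGT for ETS factors, CCAAT for NFY, GGGCGG for SP factors, AAGATGGCG for YY1, CTCGCGAG for BANP, ACTACAAT for ZNF143, TGACGTCA for CREB and TATAAA for the TATA box, none of which contains another. A match is a run of letters and not a bound site. In regions narrower than this, the window ran past their ends. The window could hold starts of 2 coding genes in bidirectional regions but of only 1 coding gene in single-gene regions. Shares are thus per region and not per start, and how far this shaped the differences was not tested. The ETS motif was in 111 of 834 bidirectional regions (13.3%), in 6.39% of single-gene regions and in 1.95% of all regions, and the first exceeded the second by 6.92 percentage points (95% Newcombe interval 4.72 to 9.44). NRF1, an activator of mitochondrial and other housekeeping genes, was at 5.04%, against 2.66% in single-gene and 0.819% in all regions (difference 2.38, interval 1.05 to 4.11, and 1.43 in the central 200 bases). YY1 was at 5.16%, against 2.90% and 0.928% (difference 2.26, interval 0.901 to 4.0, and 1.18 in the central 200 bases). BANP, which binds unmethylated CGCG elements, was at 2.88%, against 1.41% and 0.417% (difference 1.46, interval 0.493 to 2.85).

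CREB was at 4.20%, against 2.93% in single-gene and 1.30% in all regions (difference 1.26, interval 0.0455 to 2.88, and 0.787 in the central 200 bases). CCAAT was in 38.7% of bidirectional and 32.7% of single-gene regions (difference 6.0, interval 2.62 to 9.48, and 3.59 within classes of GC content), and in 30.9% of all regions, so this short motif was frequent everywhere. For 3 motifs the interval of the difference held 0. SP was at 71.2% against 69.7% (all regions 26.8%), ZNF143 at 1.20% against 0.648% (all regions 0.451%) and TATA at 4.08% against 4.21% (all regions 9.84%). Of the 34 bidirectional regions with TATAAA, 7 were the histone pairs. Single-gene regions with an opposite noncoding start had larger shares than bidirectional regions for CREB (4.64%) and SP (76.7%). Their shares were smaller for CCAAT (37.3%), BANP (2.38%), NRF1 (3.64%), YY1 (3.26%), ETS (8.53%), ZNF143 (0.627%) and TATA (3.64%). The Wilson intervals of these classes were apart for ETS only. For SP they barely overlapped, at 68.1 to 74.2 in bidirectional regions and 73.6 to 79.5 in this class. Overlap does not show that 2 shares are equal, and no interval of the difference from this class was made. At least 1 of the NRF1, ETS, YY1, BANP, ZNF143 and CREB motifs was in 233 bidirectional regions (27.9%, interval 25 to 31.1), in 20.8% (interval 18.2 to 23.8) of single-gene regions with an opposite noncoding start and in 14.9% (interval 14.2 to 15.7) of those without. This combination was not planned. It leaves out CCAAT, SP and TATA and includes ETS, so it is not evidence separate from the ETS difference.

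**Figure D5:**
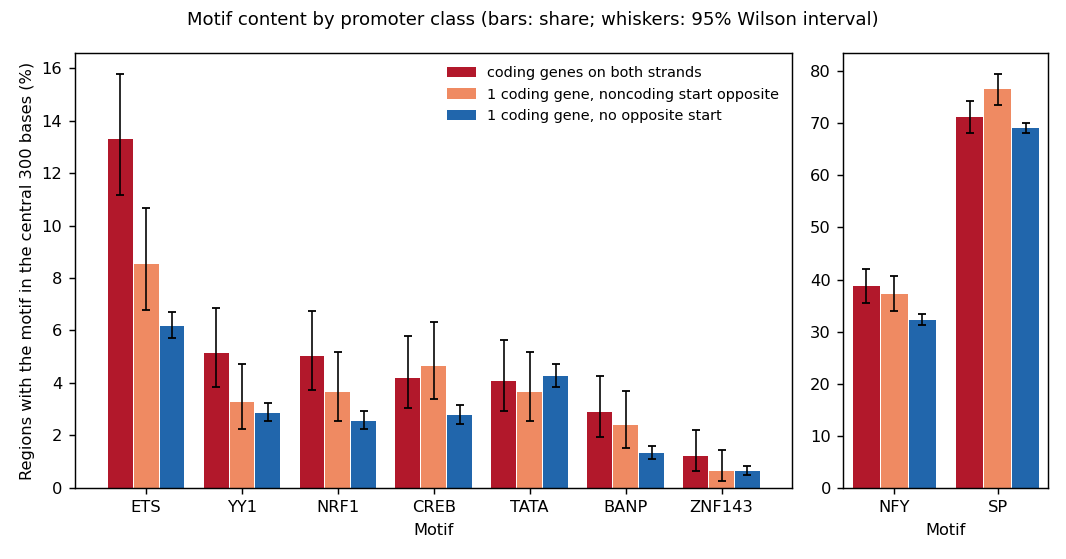
Share of regions with each of 9 motifs in the central 300 bases (%, y axes, with a larger scale in the right panel) for bidirectional regions and single-gene regions with and without an opposite noncoding start; whiskers are 95% Wilson intervals. The ETS bars stand at 13.3%, 8.53% and 6.19%, and the TATA bars overlap in their intervals.

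Motif shares differed between classes of distance between the starts. ETS was in 65 of 295 regions with starts 0 to 100 bases apart (22.0%, interval 17.7 to 27.1), in 9.69% at 101 to 250 bases (interval 6.65 to 13.9), in 8% at 251 to 500 (interval 4.40 to 14.1) and in 1.32% at 501 to 1000 (interval 0.233 to 7.08). In the remaining classes it was at 12.9% for overlapping transcripts (8 of 62, interval 6.69 to 23.4) and at 11.1% beyond 1000 bases (2 of 18, interval 3.10 to 32.8), so the shares did not fall steadily over all classes. CCAAT went from 28.5% (interval 23.6 to 33.9) to 44.2% (interval 38.3 to 50.3), 52.0% (interval 43.3 to 60.6) and 44.7% (interval 34.1 to 55.9) in the same 4 classes, and was at 30.6% for overlapping transcripts and 38.9% beyond 1000 bases. CREB was at 6.44% at 0 to 100 bases and at 4.26%, 2.40% and 1.32% in the next 3, with 95% intervals that overlap. These classes hold different genes, and the histone pairs lie among the wider distances. The central window searched had a fixed length, so it could not hold both starts where these lay further apart than that length. How far the window shaped the differences between distance classes was not tested.

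Positions relative to the starts differed between motifs as well. For regions with starts 40 bases or more apart, 44.4% of the bases searched lay between the starts. Of 526 CCAAT matches, 414 (78.7%) lay there, as did 16 of 22 BANP matches (72.7%). Between the starts were also 41 of 94 ETS matches (43.6%), 24 of 43 NRF1 matches (55.8%) and 597 of 1045 SP matches (57.1%). For YY1, 4 of 32 matches (12.5%) lay between the starts and the others lay on the transcribed side of a start or across it. These shares are over matches, several of which can come from 1 region.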

How the data were processed

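The authors aligned ATAC-seq reads of 8 samples to mm10 with Bowtie2, removed mitochondrial, multimapping and duplicate reads, called broad peaks with MACS2 and merged them with bedtools into 1 set. Per the file headers, reads were counted with featureCounts 2.0.3. From the deposited table the start, end and length of each region were used. Whether peaks were called per sample is not stated, and widths depend on caller and merging. The 8 count columns match no sample label and were not used, so depth and read counts are not analysed here.

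Regions were placed by their centre against GENCODE M21 basic starts (GRCm38, the assembly behind mm10, where 0 regions ran past a chromosome end). Regions and genes are not replicates, so shares have 95% Wilson intervals, differences of shares Newcombe intervals and medians order-statistic intervals, which cover counting error only, and no p-value was made. Intervals of gene shares treat the genes of a shared region as independent and can be too narrow. The distance of a pair is that of its closest annotated opposite starts. Members, gene lists, motifs and alternatives were chosen with earlier results of these data known. Named were the textbook pairs, the 10 widest and 5 narrowest regions, 3-gene regions, the 5 most distant and 5 most overlapping pairs, and up to 5 genes a list; further genes of the lists were named after their values were seen. Some items that these rules select are not reported here. Gene families were listed by symbol prefix, minus unrelated genes with the same prefix, which were removed after the names were seen. No textbook pair had a whole stretch of 40 to 300 bases between its starts free of comprehensive GENCODE and RefSeq exons, so the longest exon-free part was printed. Classification and motif search were tested on simulated regions. Python 3.11.15, numpy 2.4.6, scipy 1.17.1 and matplotlib 3.10.9 were used.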

Additional observations from a re-analysis of the deposited data

How the results depend on the processing

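Of 106 alternative values for 29 results, 81 stayed within the interval of the reported value (or, for the number of regions, within 1.5 times), 22 moved outside it and 3 changed sign. The share of regions covering both starts was 95.1% with 500 bases upstream, 73.7% with 2000, 84.2% with comprehensive transcripts and 83.6% when any overlap placed a region. With 2000 bases upstream the median width was 660 bases. The share of genes in no pair with a region was 43.9% (500 upstream), 46.7% (2000 upstream), 52.3% (comprehensive), 40.8% (regions of at least 200 bases) and 58.1% (any overlap). Annotated pairs with a region at both genes came to 81.7% (comprehensive) and 90.4% (any overlap), and all coding genes at a bidirectional region to 7.20% (500 upstream) and 9.86% (comprehensive). The difference in median width was 156 bases for regions of at least 200 bases and 229.9 within GC classes. Motif differences over whole regions, which are wider for bidirectional promoters, were 11 percentage points (ETS), 12.8 (NFY), 11.4 (SP), 5.60 (YY1), 2.05 (ZNF143) and 1.37 (TATA, which changed sign). The SP difference was 4.67 within GC classes and -2.50 for regions of at least 200 bases, and TATA was then 0.301, both of these with the sign changed. In the central 200 bases the differences were 1.43 (NRF1), 1.18 (YY1), 0.787 (CREB) and 0.424 (SP), and the NFY difference was 3.59 within GC classes. Antigen presentation genes came to 16% with comprehensive transcripts. The cause of these changes was not tested. No paired analysis was possible because nothing ties a count column to a sample or to its replicate, and no replicate could be left out for the same reason. Sequencing depth, which limits which regions are found, is not analysed here.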
